A study of Arabidopsis thaliana with 18 samples.

Results

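The genes described here are the nuclear genes of photosynthesis that could be named on an Affymetrix array of Arabidopsis thaliana. A gene was taken when a probe set was annotated to it alone, its locus lay on a nuclear chromosome, and its symbol started with the letters of the photosystem I, photosystem II, light-harvesting, cytochrome, Rubisco small subunit or NDH families. PRK, SBPASE, RCA and PORB were added by name. The rule found 15 genes, each with 1 probe set, among 16348 named nuclear loci and 38408 probe sets in all. A symbol that meets the rule is carried by 62 nuclear genes in the TAIR10.1 gene list, including the unrelated aminotransferase gene PSAT1, so 24.2% of them were measured. The other members of these families, among them all Rubisco small subunit and cytochrome complex genes, were not analysed here, and 2 probe sets of NdhS were left out because they map to several genes.

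Cotyledons of 6-day-old plants were compared in 3 genotypes, at 72 h and at 0 h of VISUAL, a culture in which leaf mesophyll cells are induced to become xylem and phloem cells. The genotypes were bes1-1, a T-DNA insertion line, bes1-3, another T-DNA insertion line, and the wild type Col (WT). BES1 is a transcription factor of the brassinosteroid pathway with close homologues. The 6 groups, in this order, were bes1-1 at 72 h, bes1-3 at 72 h, WT at 72 h, bes1-1 at 0 h, bes1-3 at 0 h and WT at 0 h, with 3 arrays each, numbered replicates 1 to 3. Seedlings of all groups grew in liquid MS medium at 22 °C under continuous light. The 72 h groups were then cultured with 10 µM bikinin, an inhibitor of GSK3-like kinases, 0.25 mg/L kinetin, a cytokinin, and 1.25 mg/L of the auxin 2,4-D. The 0 h groups were taken before culture, so culture itself, elapsed time and the 3 added compounds cannot be told apart in any 72 h minus 0 h difference. Nothing in the labels says whether replicates are separate cultures, so the p-values rest on a spread between arrays that may be technical only. BES1 itself is not named in the annotation used here, so the mutant labels were not checked against it.

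In the thylakoid membrane of the chloroplast, photosystem II draws electrons from water and photosystem I passes them on to ferredoxin, each fed with excitation energy by antenna proteins that bind chlorophyll. The NDH complex returns electrons from ferredoxin to the carrier pool and works together with photosystem I. The ATP and NADPH made in this way drive the Calvin cycle, in which Rubisco fixes carbon dioxide, SBPase and phosphoribulokinase rebuild its substrate, and Rubisco activase keeps the enzyme working. Most of these proteins are encoded in the nucleus, are strongly expressed in mesophyll and are imported into the plastid.

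The deposited values were used as log2 signal, so a difference of 1 is a doubling of signal. Arrays were not on a common scale: medians lay at 5.19 to 5.46 on the 6 arrays of replicate 1, and at 5.91 to 6.25 on the 12 arrays of replicates 2 and 3. Calls that changed with the replicate number as a block in the fit are therefore given beside the result. None of the 90 group means of the 15 genes was under its arrays' lower quartile, and the values of the genes, 3.94 to 12.8, stayed at least 1.31 below the highest value of the same array. A probe set was called when its adjusted p in limma, a linear model fitted to all probe sets, was below 0.05. Of the vascular markers, all 3 measured xylem wall genes (IRX15, IRX15-L and GUT2) and both measured sieve element genes (OPS and CLE45) were called higher at 72 h in each genotype. The share of all probe sets called higher is not given here. IRX15 and CLE45 had 0 h means below the lower quartile in each genotype (3.01 and 3.14 in WT), so the size of their rise is uncertain. Of 2 measured genes in a list for companion cells and phloem parenchyma, SWEET11, a sucrose exporter, was called lower in each genotype, with -3.47 ± 0.59 in bes1-1, -4.18 ± 0.59 in bes1-3 and -4.53 ± 0.59 in WT (SE). SWEET13, another sucrose exporter, was not called, with 0.40, 0.54 and -0.14 in the same order.

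After 72 h of culture most or all of the 15 photosynthesis genes were called lower in each genotype. In bes1-1, 14 of the 15 genes were called lower, against 9.76% of all probe sets. In bes1-3 all 15 were called lower, where the share over all probe sets was 11.4%. In WT 13 were called lower, beside 10.8% of all probe sets. None was called higher in any genotype. The median change of the 15 genes was -2.60 in bes1-1, -3.03 in bes1-3 and -2.74 in WT on the log2 scale, while the median over all probe sets was 0.034, 0.033 and -0.034 in the same order. The groups of arrays did not overlap, with every 72 h array below every 0 h array, for 15 genes in bes1-1, 15 in bes1-3 and 14 in WT. The share of all probe sets that were lower without overlap was 14.7% in bes1-1, 16.3% in bes1-3 and 16.1% in WT. Within replicates 2 and 3 alone, 15, 15 and 14 genes were called lower in bes1-1, bes1-3 and WT, beside 17%, 17.8% and 16.8% of all probe sets. The same 15, 15 and 14 were the counts with the replicate number as a block, where 21.9%, 21.3% and 20.8% of all probe sets were called lower.

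In bulk tissue, fewer cells of a type and less RNA of a gene per cell cannot be told apart. The summed linear signal of the 3 xylem wall genes was 894 to 2992 in bes1-1, 2500 to 4817 in bes1-3 and 3926 to 7064 in WT at 72 h. At 0 h it was 229 to 382 in bes1-1, 250 to 472 in bes1-3 and 241 to 414 in WT. Markers of guard cell precursors moved the other way: of SPCH, MUTE and FMA, 3 were called lower in bes1-1, 2 in bes1-3 and 2 in WT, and all 3 in each genotype with the replicate number as a block. Their summed signal was 89.9 to 174 in bes1-1, 86.1 to 153 in bes1-3 and 138 to 294 in WT at 72 h, against 345 to 705, 295 to 721 and 359 to 605 at 0 h in the same order. At 72 h most of this sum was FMA. Of the 3 genes, 2 in each mutant and 1 in WT then had a mean below the lower quartile. The summed signal of SWEET11 and SWEET13 was 125 to 642 in bes1-1, 114 to 313 in bes1-3 and 100 to 215 in WT at 72 h, against 2493 to 4876, 1979 to 4185 and 2188 to 4472 at 0 h. On the linear scale this sum is almost all SWEET11. In bes1-1 at 0 h SWEET11 had a mean log2 signal of 11.88 and SWEET13 one of 3.47. SAG29, the only measured gene of a senescence list, was called lower in bes1-3 (-2.08 ± 0.64 SE) and gave -0.79 ± 0.64 in bes1-1 and -1.77 ± 0.64 in WT, where it was called with the block (adjusted p = 0.046). The part of these cells in the fall of the photosynthesis genes was not tested. Of 9 reference genes, chosen as steadily expressed, none was called by limma or had an unadjusted p under 0.05 in the change of any genotype, and with the block 1 was called in bes1-1, 4 in bes1-3 and 1 in WT, all higher.

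**Figure D1:**
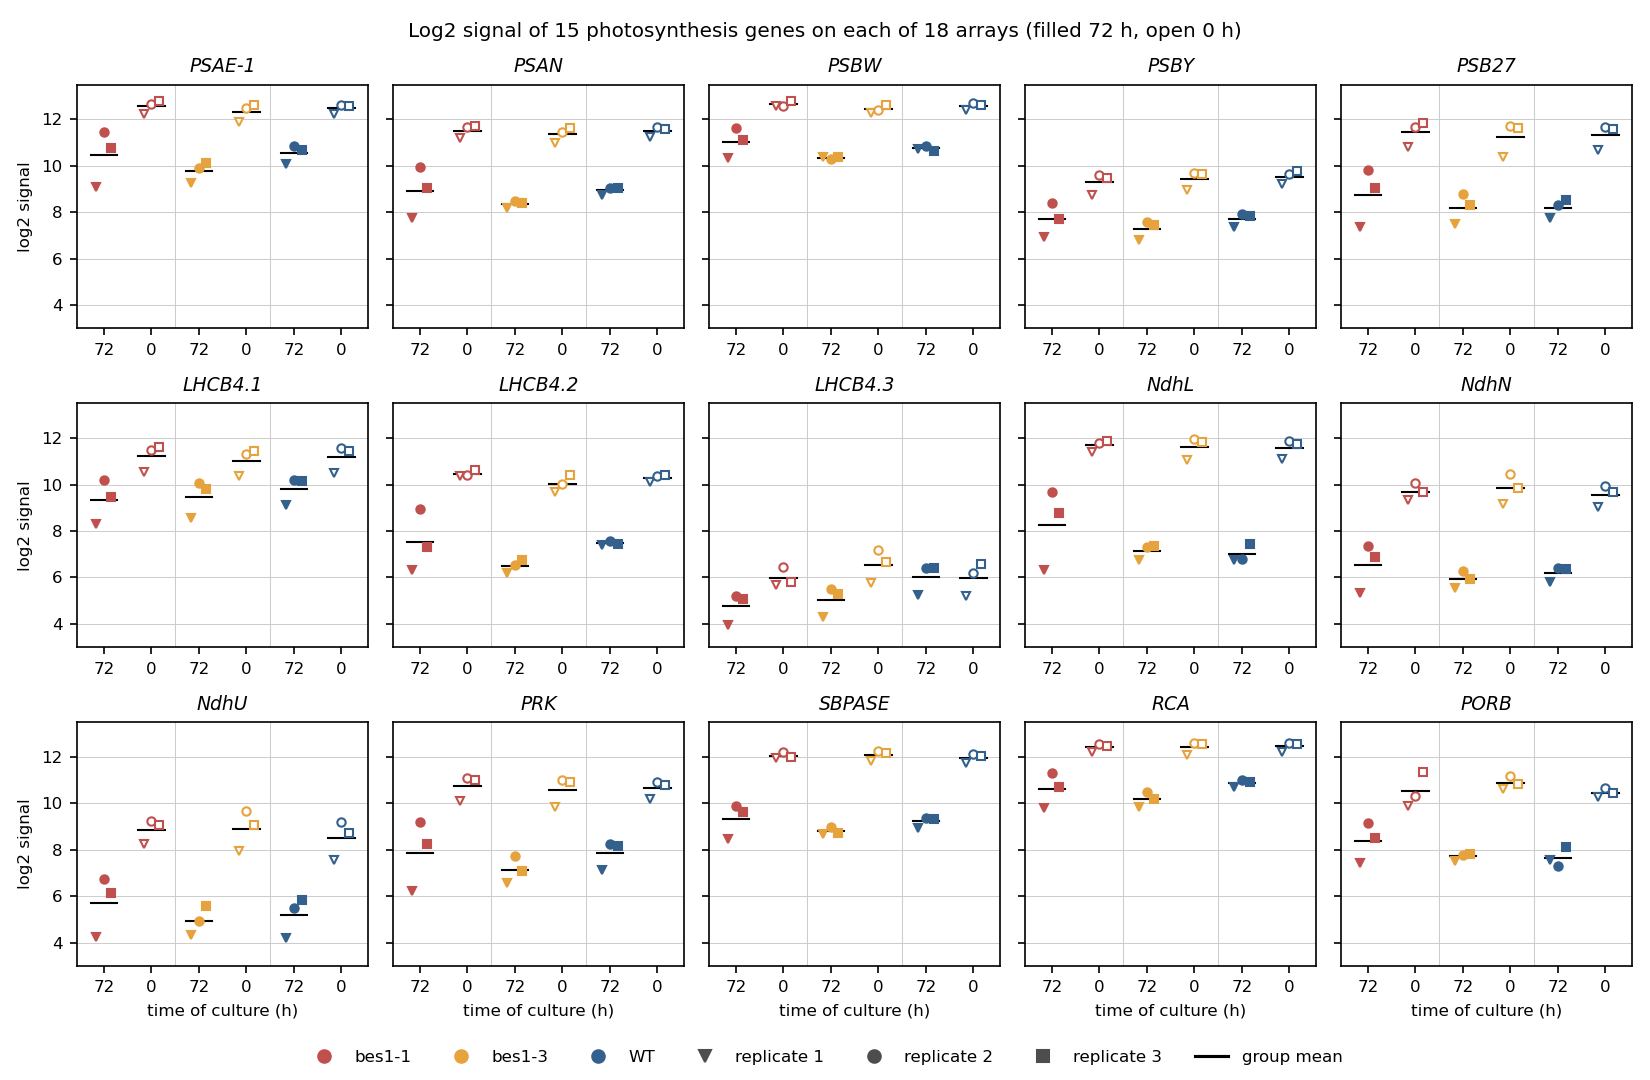
Log2 signal of each of the 15 genes (panels) on each of the 18 arrays, with filled symbols at 72 h, open symbols at 0 h, colours for genotype, shapes for replicate number and bars for group means. Filled symbols lie below open ones of the same genotype in every panel except LHCB4.3, where the WT groups overlap. The 72 h symbols of bes1-1 are the most widely spread in every panel except LHCB4.3.

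Both measured genes of photosystem I fell in every genotype. PSAE-1 (AT4G28750) encodes a stromal subunit at the ferredoxin docking site, and PSAN (AT5G64040) a lumenal subunit near the plastocyanin binding site. In bes1-1 cotyledons PSAN had log2 signals of 7.73, 9.96 and 9.05 at 72 h, against 11.19, 11.66 and 11.7 at 0 h. The bes1-3 arrays gave 8.17, 8.48 and 8.38 for PSAN at 72 h, against 11, 11.47 and 11.62 at 0 h. WT cotyledons had 8.76, 9.05 and 9.05 at 72 h, against 11.23, 11.66 and 11.57 at 0 h. All 72 h arrays were thus below all 0 h arrays, and bes1-1 held both the lowest and the highest 72 h value. The change was -2.60 ± 0.40 in bes1-1 (SE of the fit, adjusted p = 0.000179), -3.02 ± 0.40 in bes1-3 (3.21e-05) and -2.53 ± 0.40 in WT (0.000186), a 5.78-fold lower signal in WT.

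PSAE-1 showed the same separation with smaller changes. Its signals were 9.1, 11.47 and 10.77 in bes1-1 at 72 h, against 12.22, 12.66 and 12.78 at 0 h. In bes1-3 they were 9.25, 9.91 and 10.11 at 72 h, against 11.87, 12.48 and 12.61 at 0 h. In WT they were 10.08, 10.83 and 10.68 at 72 h, against 12.24, 12.62 and 12.59 at 0 h. No 72 h array reached a 0 h array of its genotype. PSAE-1 changed by -2.11 ± 0.46 in bes1-1 (adjusted p = 0.0032), by -2.56 ± 0.46 in bes1-3 (0.000533) and by -1.95 ± 0.46 in WT (0.00521).

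Among the 6 genes of photosystem II, 3 encode proteins of the core or its assembly: PSB27 (AT1G03600), a lumenal factor of assembly and repair, PSBW (AT2G30570), a small subunit that stabilises the supercomplex with the antenna, and PSBY (AT1G67740), whose product is processed into small membrane peptides. Each fell in each genotype. PSB27 had signals of 7.37, 9.82 and 9.02 in bes1-1 at 72 h, against 10.8, 11.69 and 11.84 at 0 h. In bes1-3 cotyledons PSB27 had 7.5, 8.78 and 8.32 at 72 h, against 10.37, 11.72 and 11.62 at 0 h. In WT cotyledons PSB27 had 7.74, 8.31 and 8.52 at 72 h, against 10.69, 11.68 and 11.6 at 0 h. The groups did not overlap, and replicate 1 was the lowest array of each group. The change of PSB27 was -2.70 ± 0.56 in bes1-1 (adjusted p = 0.00225), -3.03 ± 0.56 in bes1-3 (0.00071) and -3.13 ± 0.56 in WT (0.00059).

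PSBW and PSBY changed less. PSBW averaged 11.03 ± 0.65 in bes1-1, 10.34 ± 0.05 in bes1-3 and 10.74 ± 0.10 in WT at 72 h (SD, n = 3 each), against 12.66 ± 0.12, 12.43 ± 0.18 and 12.57 ± 0.15 at 0 h in the same order. Its change was -1.63 ± 0.26 in bes1-1, -2.08 ± 0.26 in bes1-3 and -1.83 ± 0.26 in WT, with adjusted p-values of 0.000246, 1.79e-05 and 6.66e-05. The SD of bes1-1 at 72 h was the largest of the 6 groups. PSBY averaged 7.69 ± 0.72 in bes1-1, 7.28 ± 0.41 in bes1-3 and 7.71 ± 0.32 in WT at 72 h, and 9.29 ± 0.46, 9.44 ± 0.41 and 9.53 ± 0.30 at 0 h. Its change was -1.60 ± 0.36 in bes1-1, -2.16 ± 0.36 in bes1-3 and -1.82 ± 0.36 in WT, with adjusted p-values of 0.00452, 0.00032 and 0.00152.

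The remaining 3 photosystem II genes, LHCB4.1 (AT5G01530), LHCB4.2 (AT3G08940) and LHCB4.3 (AT2G40100), encode versions of a minor antenna protein that links the core to the trimeric antenna. LHCB4.3 is the most divergent of them in sequence. They did not change alike. LHCB4.2 signals were 6.3, 8.94 and 7.31 in bes1-1 at 72 h, against 10.36, 10.42 and 10.63 at 0 h. In bes1-3 cotyledons LHCB4.2 had 6.17, 6.54 and 6.75 at 72 h, against 9.68, 10.02 and 10.41 at 0 h. In WT cotyledons LHCB4.2 had 7.4, 7.57 and 7.43 at 72 h, against 10.12, 10.38 and 10.4 at 0 h. All 72 h arrays were lower, and the 3 WT arrays at 72 h lay close together while those of bes1-1 were far apart. The change was -2.96 ± 0.45 in bes1-1 (adjusted p = 0.000171), -3.54 ± 0.45 in bes1-3 (2.27e-05) and -2.83 ± 0.45 in WT (0.000204).

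LHCB4.1 changed less than LHCB4.2 on every array pair of the same number. In bes1-1 cotyledons LHCB4.1 had 8.31, 10.19 and 9.46 at 72 h, against 10.52, 11.48 and 11.63 at 0 h. In bes1-3 cotyledons LHCB4.1 had 8.58, 10.06 and 9.8 at 72 h, against 10.35, 11.33 and 11.43 at 0 h. In WT cotyledons LHCB4.1 had 9.13, 10.19 and 10.14 at 72 h, against 10.48, 11.58 and 11.46 at 0 h. The groups did not overlap in any genotype, and replicate 1 was lowest in each. The change was -1.89 ± 0.53 in bes1-1 (adjusted p = 0.0181) and -1.56 ± 0.53 in bes1-3 (0.047). In WT it was -1.35 ± 0.53 and not called (0.0961), with a 95% interval of -2.48 to -0.22. The 3 WT differences between arrays of the same number were -1.35, -1.40 and -1.32, and with the replicate number as a block LHCB4.1 was called in WT as well (adjusted p = 1.71e-05), as it was within replicates 2 and 3 (0.00163). The bes1-1 call was lost without replicate 1 at 72 h (adjusted p = 0.0892), or without replicate 2 or 3 at 0 h (0.0598 and 0.0757).

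LHCB4.3 was the only one of the 15 genes whose WT groups overlapped. In bes1-1 cotyledons LHCB4.3 had 3.94, 5.22 and 5.09 at 72 h, against 5.66, 6.45 and 5.8 at 0 h. In bes1-3 cotyledons LHCB4.3 had 4.29, 5.48 and 5.3 at 72 h, against 5.77, 7.17 and 6.66 at 0 h. In WT cotyledons LHCB4.3 had 5.26, 6.4 and 6.41 at 72 h, against 5.19, 6.19 and 6.56 at 0 h. In both mutants every 72 h array was below every 0 h array, whereas the WT values at 72 h and 0 h interleaved. The LHCB4.3 signal was low, with the lowest 0 h mean of the 15 genes in each genotype (5.97, 6.53 and 5.98 in bes1-1, bes1-3 and WT). At 72 h every mutant value was below the median of its array, such as 5.22 against 6.25 in replicate 2 of bes1-1. In bes1-3 the gene changed by -1.51 ± 0.49 (adjusted p = 0.0381). The change in bes1-1 was -1.22 ± 0.49 and not called (0.0977), but it was called with the block (2e-04) and within replicates 2 and 3 (0.0168). In WT the change was 0.04 ± 0.49 (adjusted p = 0.983), with a 95% interval of -1.01 to 1.09, and the block left it uncalled (0.889). The sign of this WT value turned under quantile normalization (-0.06) and under equal array medians (-0.04). In bes1-3 the calls of LHCB4.1 and LHCB4.3 were both lost without replicate 1 at 72 h (adjusted p = 0.186 and 0.15), without replicate 3 at 72 h (0.0696 and 0.0601), without replicate 2 at 0 h (0.143 and 0.166), without replicate 3 at 0 h (0.151 and 0.1) and when only the bes1-3 arrays were fitted (0.0628 and 0.0637).

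The change of LHCB4.3 minus that of LHCB4.2, taken between arrays of the same replicate number, has no test here. A shift shared by all probe sets of an array cancels in it, but a shift that depends on signal level does not, and LHCB4.3 had lower signals than LHCB4.2. It was 2.34, 0.26 and 2.61 in bes1-1, 2.02, 1.78 and 2.30 in bes1-3 and 2.79, 3.02 and 2.82 in WT. The change of LHCB4.3 minus that of LHCB4.1 was 0.48, 0.07 and 1.46 in bes1-1, 0.29, -0.42 and 0.28 in bes1-3 and 1.41, 1.61 and 1.17 in WT. The WT values of the LHCB4.2 comparison were all above those of both mutants, and for LHCB4.1 the WT values were all above those of bes1-3 but not all above replicate 3 of bes1-1.

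**Figure D2:**
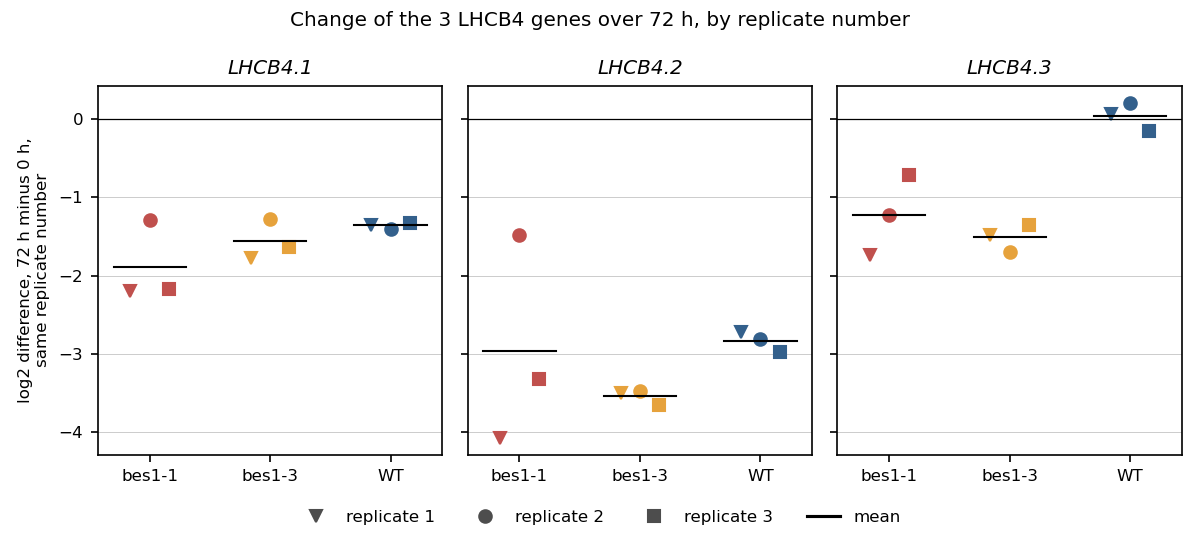
Change in log2 signal (72 h minus 0 h, arrays of the same replicate number) of LHCB4.1, LHCB4.2 and LHCB4.3, with 1 symbol per replicate and a bar for the mean of each genotype. LHCB4.3 lies between -0.15 and 0.21 in WT, between -1.73 and -0.71 in bes1-1 and between -1.69 and -1.35 in bes1-3.

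The NDH genes had the largest changes of the 4 role groups, with medians of -3.17 in bes1-1, -3.94 in bes1-3 and -3.36 in WT. NdhL (AT1G70760) encodes a membrane subunit, NdhN (AT5G58260) a stromal subunit of the same subcomplex and NdhU (AT5G21430) a J-like protein of the ferredoxin-binding side. All 3 were called lower in all 3 genotypes. In bes1-1 cotyledons NdhL had 6.33, 9.69 and 8.79 at 72 h, against 11.4, 11.8 and 11.88 at 0 h. In bes1-3 cotyledons NdhL had 6.74, 7.33 and 7.36 at 72 h, against 11.05, 11.95 and 11.82 at 0 h. In WT cotyledons NdhL had 6.74, 6.79 and 7.46 at 72 h, against 11.11, 11.87 and 11.74 at 0 h. The 72 h and 0 h arrays were far apart in WT and bes1-3, and replicate 2 of bes1-1 came nearest to its 0 h group. NdhL changed by -3.42 ± 0.59 in bes1-1 (adjusted p = 0.000538), by -4.47 ± 0.59 in bes1-3 (3.49e-05) and by -4.57 ± 0.59 in WT (3.07e-05), which is a 23.8-fold lower signal in WT.

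NdhN followed with 5.33, 7.35 and 6.9 in bes1-1 at 72 h, against 9.34, 10.07 and 9.68 at 0 h. In bes1-3 cotyledons NdhN had 5.55, 6.28 and 5.92 at 72 h, against 9.18, 10.46 and 9.86 at 0 h. In WT cotyledons NdhN had 5.8, 6.4 and 6.35 at 72 h, against 9.03, 9.93 and 9.69 at 0 h. Groups were separate in each genotype, and the lowest 72 h array was replicate 1 in each. The change was -3.17 ± 0.46 in bes1-1 (adjusted p = 0.000108), -3.92 ± 0.46 in bes1-3 (1.03e-05) and -3.36 ± 0.46 in WT (4.85e-05). NdhU changed by -3.15 ± 0.65, -3.94 ± 0.65 and -3.33 ± 0.65 in bes1-1, bes1-3 and WT (adjusted p = 0.00214, 0.000254 and 0.00125).

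The 4 genes of carbon fixation and chlorophyll synthesis all fell in all 3 genotypes, with medians of -2.43 in bes1-1, -3.22 in bes1-3 and -2.77 in WT. PORB (AT4G27440) encodes a light-dependent protochlorophyllide oxidoreductase. In bes1-1 cotyledons PORB had 7.43, 9.17 and 8.5 at 72 h, against 9.89, 10.33 and 11.36 at 0 h. In bes1-3 cotyledons PORB had 7.52, 7.79 and 7.84 at 72 h, against 10.62, 11.19 and 10.83 at 0 h. In WT cotyledons PORB had 7.54, 7.29 and 8.12 at 72 h, against 10.29, 10.67 and 10.44 at 0 h. No 72 h array reached a 0 h array, although the bes1-1 groups came within less than 1 unit of each other. PORB changed by -2.16 ± 0.41 in bes1-1 (adjusted p = 0.00114), by -3.17 ± 0.41 in bes1-3 (2.73e-05) and by -2.81 ± 0.41 in WT (9.21e-05).

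PRK (AT1G32060) encodes phosphoribulokinase, which makes the substrate of Rubisco. In bes1-1 cotyledons PRK had 6.22, 9.18 and 8.24 at 72 h, against 10.11, 11.11 and 11 at 0 h. In bes1-3 cotyledons PRK had 6.55, 7.75 and 7.08 at 72 h, against 9.85, 11.01 and 10.93 at 0 h. In WT cotyledons PRK had 7.15, 8.27 and 8.15 at 72 h, against 10.21, 10.92 and 10.81 at 0 h. The groups were separate, and bes1-1 again spread most at 72 h. PRK changed by -2.86 ± 0.60 in bes1-1, -3.47 ± 0.60 in bes1-3 and -2.79 ± 0.60 in WT (adjusted p = 0.00256, 0.000422 and 0.00287). SBPASE (AT3G55800), for sedoheptulose-bisphosphatase of the same cycle, changed by -2.71 ± 0.30, -3.28 ± 0.30 and -2.74 ± 0.30 in bes1-1, bes1-3 and WT. Its WT adjusted p, 5.79e-06, was the smallest of the 15 genes. RCA (AT2G39730), for Rubisco activase, changed by -1.81 ± 0.31, -2.23 ± 0.31 and -1.59 ± 0.31 in bes1-1, bes1-3 and WT (adjusted p = 0.000526, 5.99e-05 and 0.00135).

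**Figure D3:**
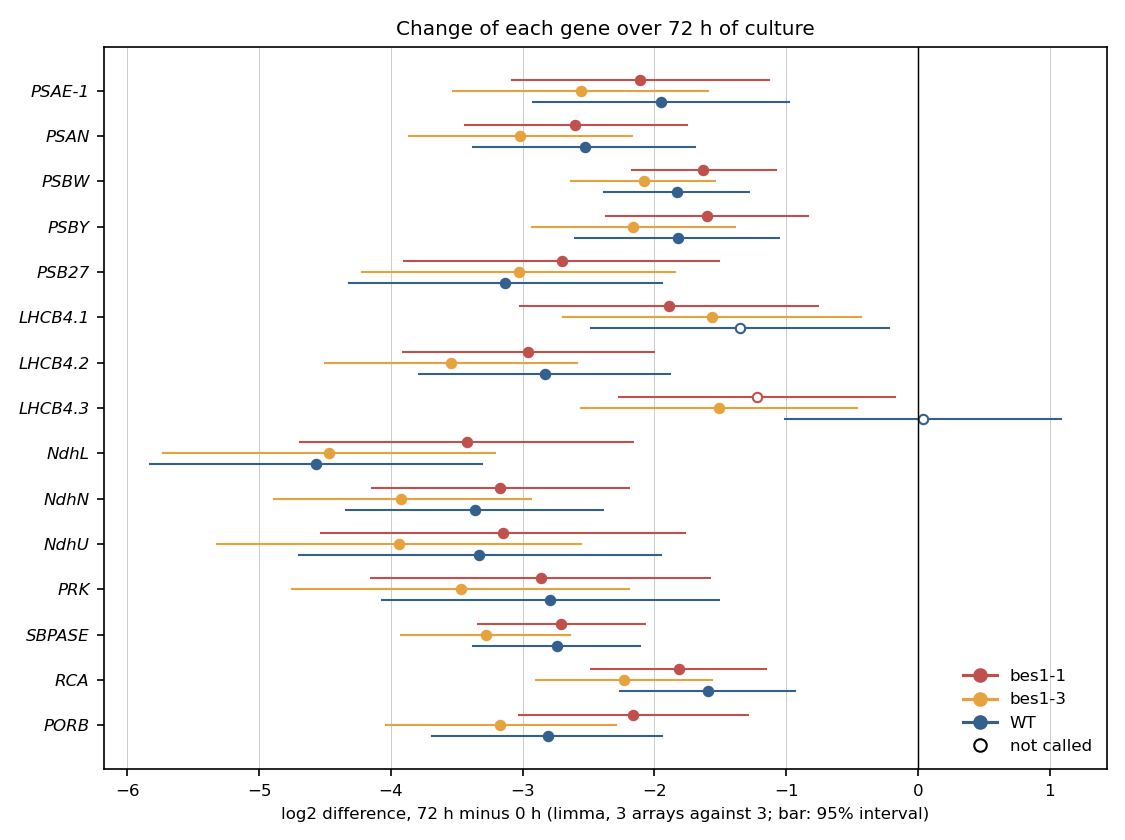
Change in log2 signal (72 h minus 0 h) of the 15 genes in bes1-1, bes1-3 and WT, as the limma estimate with its 95% interval, from 3 arrays against 3, with open symbols for values not called. Estimates run from -4.57 for NdhL to 0.04 for LHCB4.3, both in WT, and the open symbols are LHCB4.1 and LHCB4.3 in WT and LHCB4.3 in bes1-1.

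Other genes of photosynthesis and pigment synthesis moved mostly in the same direction. Of 7 measured genes of chlorophyll synthesis, from a list of 35, 7 were called lower in bes1-1, 7 in bes1-3 and 6 in WT. HEME1 and HEME2, for uroporphyrinogen decarboxylases, changed by -3.12 and -2.94 in bes1-1, -3.23 and -3.11 in bes1-3 and -3.29 and -3.13 in WT. CHLM, for the magnesium protoporphyrin methyltransferase, changed by -2.53, -2.81 and -2.62 in bes1-1, bes1-3 and WT. HEMA2, for a glutamyl-tRNA reductase, was the gene not called in WT (-0.33 ± 0.23, adjusted p = 0.429) and changed by -0.85 in bes1-1 and -0.96 in bes1-3.

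Of 9 measured genes for assembly, repair and regulation of the complexes, from a list of 68, 6 were called lower in each genotype. CRR42, an assembly factor of the NDH complex, changed by -2.86 in bes1-1, -4.13 in bes1-3 and -3.19 in WT. PAM68, an assembly factor of photosystem II, changed by -3.29, -3.34 and -3.02 in bes1-1, bes1-3 and WT. HCF101, which brings iron-sulfur clusters to photosystem I, changed by -2.17, -2.43 and -2.26 in the same order. The 3 uncalled genes were CRR41, PGRL1B and LPA66 in each genotype, with values of -1.33 to -0.32. With the replicate number as a block 8 of the 9 were called lower in bes1-1, 9 in bes1-3 and 8 in WT, with CRR41 (adjusted p = 0.00152, 0.0012 and 0.00259) and PGRL1B (4.65e-06, 6.56e-06 and 0.000883) called in each genotype and LPA66 in bes1-3 (0.0252).

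Single genes stood for the other lists. ATPC1, the gamma subunit of the plastid ATP synthase, changed by -2.26 in bes1-1, by -2.78 in bes1-3 and by -2.25 in WT. HPR, for hydroxypyruvate reductase of photorespiration, changed by -2.06 in bes1-1, by -2.57 in bes1-3 and by -1.98 in WT. HYH, a homologue of the light-signalling transcription factor HY5, changed by -1.62 in bes1-1, by -2.35 in bes1-3 and by -2.17 in WT. TPI, for the cytosolic triosephosphate isomerase, was not called, with 0.19 ± 0.20 in bes1-1, 0.01 ± 0.20 in bes1-3 and -0.11 ± 0.20 in WT, and signs that turned under other scalings.

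The genotypes were next compared at each time, to ask whether the bes1 insertions go with different levels before or after culture. The comparisons with WT share the WT arrays. At 0 h no gene of the 15 was called in either mutant. In bes1-1 the differences from WT at 0 h ran from -0.24 for PSBY (95% interval -1.02 to 0.53) to 0.35 for NdhU (-1.02 to 1.73), with 0.0208% of all probe sets called. In bes1-3 they ran from -0.27 for LHCB4.2 to 0.55 for LHCB4.3 (-0.50 to 1.60), with PORB at 0.42, and 0.00781% of all probe sets were called. No unadjusted p was under 0.05 in either. Limma with the block called none of the 15 as well, with 0.107% of all probe sets called in bes1-1 and 0.0156% in bes1-3. The median half-width of the 95% intervals over the 15 genes was 0.97.

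At 72 h no gene was called in bes1-1 minus WT, where 0.844% of all probe sets were called, and 2 genes had an unadjusted p under 0.05. These were LHCB4.3 and NdhL, with differences of equal size and opposite sign. LHCB4.3 averaged 4.75 ± 0.71 in bes1-1 and 6.02 ± 0.66 in WT (SD, n = 3 each). The difference was -1.27 ± 0.49 (SE, adjusted p = 0.394, 95% interval -2.32 to -0.23). It was -1.32, -1.18 and -1.32 between arrays of the same number, and the bes1-1 arrays lay below the WT arrays without overlap, by 5.22 against 5.26 at the nearest. Of all probe sets 4.57% were lower without overlap. With the replicate number as a block LHCB4.3 was called (adjusted p = 0.00109), as 6.3% of all probe sets were called lower, and it was called within replicates 2 and 3 (0.0262), where 3.19% of all probe sets were called lower.

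NdhL averaged 8.27 ± 1.74 in bes1-1 and 7.0 ± 0.40 in WT at 72 h, a difference of 1.27 ± 0.59 (adjusted p = 0.576, 95% interval 0.01 to 2.53). Between arrays of the same number it was -0.41, 2.89 and 1.33, so replicate 1 had the opposite sign. It was 2.11 within replicates 2 and 3 (adjusted p = 0.0067) and 2.24 without replicate 1 of bes1-1 at 72 h (0.016), and it was called in both. With the block it was not called (0.0849). The median difference of the 15 genes was -0.48 in replicate 1, 0.91 in replicate 2 and 0.09 in replicate 3, while that of all probe sets was 0.09 in each. In replicate 1 bes1-1 was below WT for 14 genes, in replicate 2 for 1 gene and in replicate 3 for 5 genes. The share of all probe sets is not given for these counts.

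In bes1-3 minus WT at 72 h none of the 15 was called, beside 0.13% of all probe sets, and 2 had an unadjusted p under 0.05. These were RCA and LHCB4.2. The median difference of the 15 genes was -0.43, against 0.067 for all probe sets. By replicate number the median was -0.54, -0.52 and -0.43, against 0.05, 0.08 and 0.08 for all probe sets. The mean was lower for 12 of 15 genes, and 11 were lower on all 3 pairs of arrays of the same number. The share of all probe sets is not given for these 2 counts. The 15 genes were read on the same arrays, so they are not independent of each other. LHCB4.3 averaged 5.02 ± 0.64 in bes1-3 and 6.02 ± 0.66 in WT, a difference of -1.0 ± 0.49 (adjusted p = 0.996, 95% interval -2.05 to 0.05). Between arrays of the same number it was -0.97, -0.93 and -1.10. LHCB4.2 averaged 6.49 ± 0.29 in bes1-3 and 7.47 ± 0.09 in WT, a difference of -0.98 ± 0.45 (adjusted p = 0.963). The 3 bes1-3 arrays of LHCB4.2 were all below the 3 of WT, as were those of RCA, PSAN and PSBW, and 3.28% of all probe sets were lower without overlap. With the block 2 genes were called lower, LHCB4.3 (adjusted p = 0.011) and RCA (-0.69 ± 0.19, 0.0455), where 3.46% of all probe sets were called lower. Within replicates 2 and 3 neither was called (0.11 and 0.186), beside 0.599% of all probe sets called lower.

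**Figure D4:**
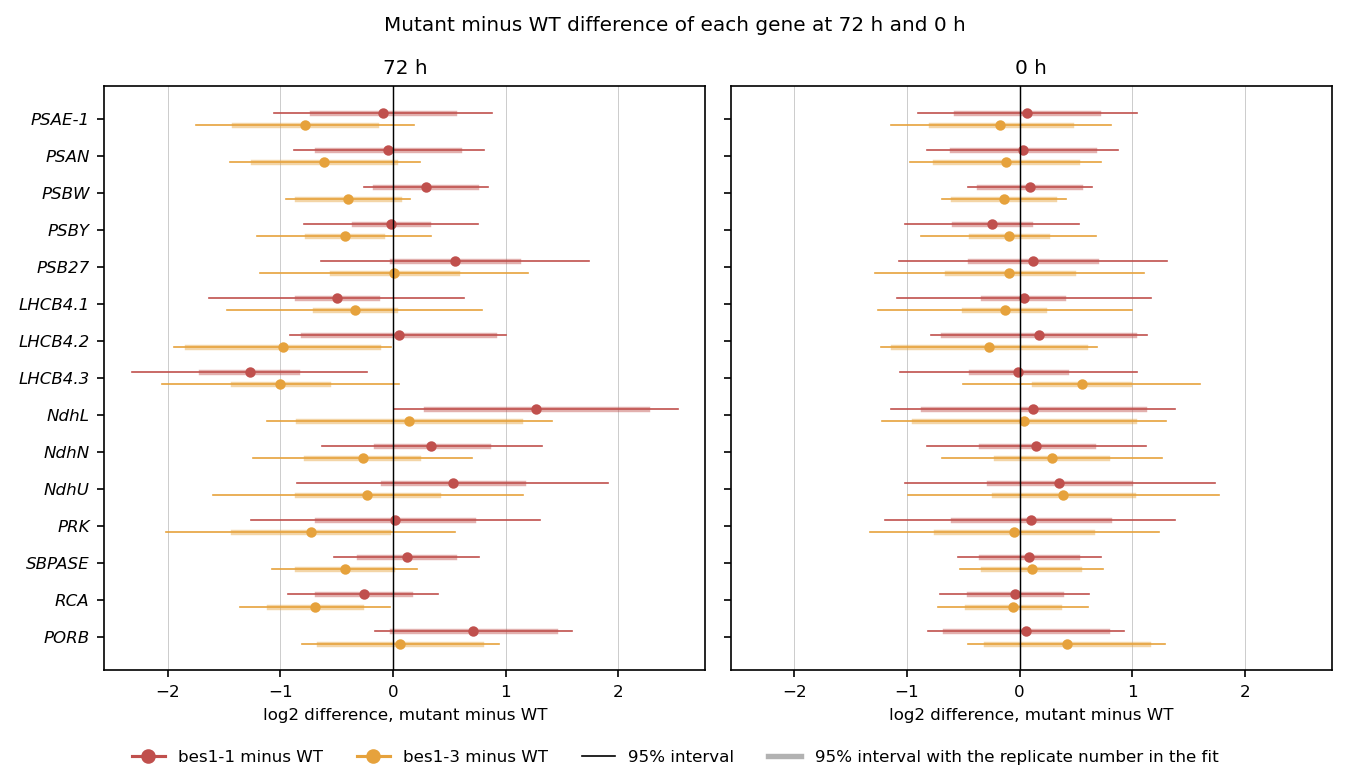
Mutant minus WT difference in log2 signal of the 15 genes at 72 h (left) and 0 h (right), with thin bars for the 95% interval of limma and thick bars for that with the replicate number in the fit. At 72 h LHCB4.3 lies at -1.27 in bes1-1 and -1.0 in bes1-3 and NdhL at 1.27 in bes1-1, none of them called by limma without the block, and at 0 h the differences lie between -0.27 and 0.55.

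The change over 72 h was also compared between each mutant and WT in 1 test. For bes1-1 no gene was called and none had an unadjusted p under 0.05, beside 0.0521% of all probe sets called. The largest differences in change were -1.26 ± 0.70 for LHCB4.3 (adjusted p = 0.836, 95% interval -2.75 to 0.22) and 1.15 ± 0.84 for NdhL (0.989, -0.64 to 2.93). For bes1-3 no gene was called, 1 had an unadjusted p under 0.05, and the share over all probe sets was 0%. That gene was LHCB4.3, with a difference in change of -1.55 ± 0.70 (adjusted p = 1, 95% interval -3.04 to -0.07) and values of -1.55, -1.90 and -1.21 by replicate number. LHCB4.2 gave -0.71 ± 0.64 (adjusted p = 1). With the replicate number as a block LHCB4.3 was called for bes1-1 (adjusted p = 0.0165, beside 8.33% of all probe sets) and for bes1-3 (0.0264, beside 1.12%). Over all probe sets, deviations of same-numbered arrays from their group means correlated at 0.011 to 0.498 for bes1-1. For bes1-3 the correlations were 0.08 to 0.517. Within replicates 2 and 3 LHCB4.3 was not called in either (0.21 and 0.226).

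The 2 alleles were compared directly as well. At 0 h bes1-1 minus bes1-3 ran from -0.56 ± 0.49 for LHCB4.3 to 0.44 ± 0.45 for LHCB4.2, with no gene called, no unadjusted p under 0.05 and 0.0703% of all probe sets called. At 72 h no gene was called, beside 0.0104% of all probe sets, and 2 had an unadjusted p under 0.05, LHCB4.2 and PSBW. The block called none of the 15 at either time, with 0.784% of all probe sets called at 0 h and 1.16% at 72 h. At 72 h bes1-1 was above bes1-3 in the mean of 13 genes, with the largest differences for NdhL (1.13 ± 0.59) and LHCB4.2 (1.03 ± 0.45). The median of the 15 genes was 0.61, against 0.017 for all probe sets. The median by replicate number was -0.15, 1.34 and 0.66, against 0.04, 0 and -0.01 for all probe sets. In replicate 1 bes1-1 was below bes1-3 for 13 genes, in replicate 2 for 1 and in replicate 3 for 2. The share of all probe sets is not given for these counts by sign.

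The range over the 3 arrays was widest in bes1-1 at 72 h for every gene except LHCB4.3. Replicate 1 was the lowest and replicate 2 the highest array there for all 15 genes, while over all probe sets replicate 1 was lowest for 85.2% and replicate 2 highest for 49%. Replicate 1 was the lowest array in the other 72 h groups as well, for 14 genes in bes1-3 and 13 in WT. Over all probe sets it was lowest for 89.1% and 87.3% there. At 0 h it was lowest for all 15 genes in each group. The share of all probe sets there was 83.8% in bes1-1, 85.4% in bes1-3 and 85% in WT. Replicate 2 was the highest for 9 genes in bes1-3 and 10 in WT at 72 h, beside 49.5% and 48.5% of all probe sets. At 0 h replicate 2 was the highest for 7 genes in bes1-1, 10 in bes1-3 and 12 in WT. The shares of all probe sets were 54.2%, 47.2% and 43.3% in the same order. The median range over the 3 arrays was 2.03 for the 15 genes in bes1-1 at 72 h, 0.73 in bes1-3 and 0.71 in WT at 72 h. At 0 h it was 0.74 in bes1-1, 0.73 in bes1-3 and 0.56 in WT, and over all probe sets the range in bes1-1 at 72 h was 0.76. The mean log2 signal over the 15 genes in bes1-1 at 72 h was 7.19, 9.27 and 8.56 in replicates 1, 2 and 3. On the same arrays the mean of the 3 xylem wall genes was 7.12, 8.16 and 8.85, and that of the 9 reference genes 7.77, 8.28 and 8.25. Xylem wall and photosynthesis genes were therefore both lowest in replicate 1, and replicate 2 was highest for photosynthesis genes but not for xylem wall genes.

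At 72 h 2 of the 3 xylem wall genes were called lower in bes1-1 minus WT, IRX15 at -2.88 ± 0.53 (adjusted p = 0.0177) and IRX15-L at -2.19 ± 0.43 (0.0285), and GUT2 was not (-1.49 ± 0.43, 0.163). GUT2 was called with the block (0.000286) and within replicates 2 and 3 (0.0183). In bes1-3 minus WT none was called without the block, with IRX15 at -1.58 ± 0.53 (adjusted p = 0.586, but 0.0142 with the block and 0.0185 within replicates 2 and 3), IRX15-L at -0.79 ± 0.43 and GUT2 at -0.38 ± 0.43. The 15 photosynthesis genes had a median difference from WT of 0.05 in bes1-1 and -0.43 in bes1-3 at the same time. Their relation to the xylem wall genes across genotypes was not tested.

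**Figure D5:**
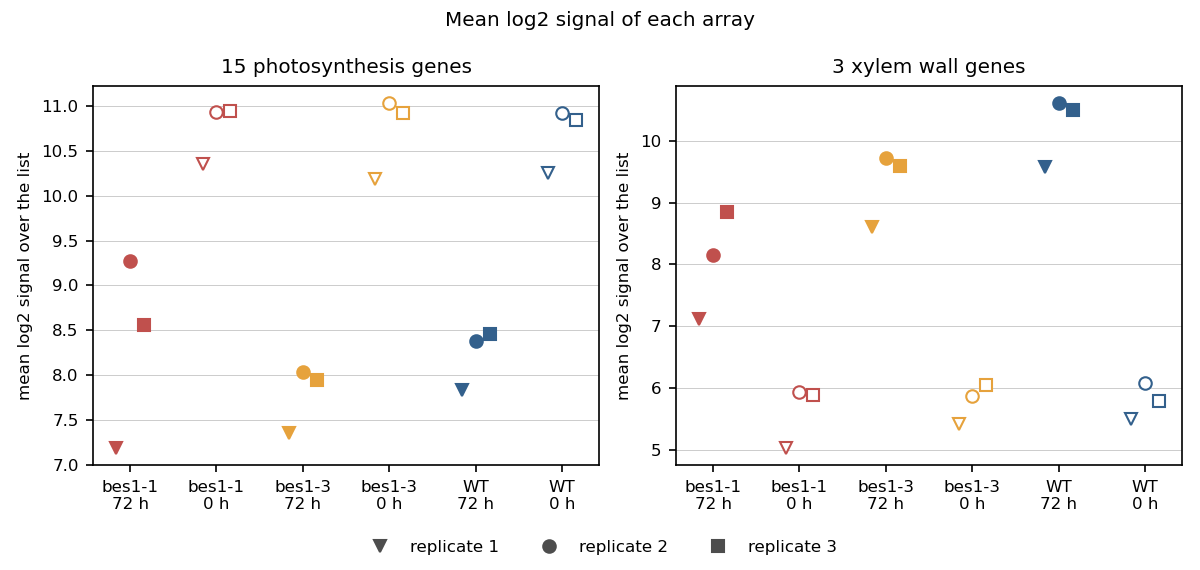
Mean log2 signal of the 15 photosynthesis genes (left) and of 3 xylem wall genes (right) on each array, by group, with filled symbols at 72 h and open symbols at 0 h. The photosynthesis mean is lower and the xylem wall mean higher at 72 h in each genotype, and the 3 bes1-1 arrays at 72 h span 7.19 to 9.27 for photosynthesis genes.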

How the data were processed

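Total RNA of 18 cotyledon samples, 1 biotin-labelled sample per array, was measured on an Affymetrix array. Each probe set has 1 deposited value on each array, taken as a log2 value from its range. Affymetrix Expression Console made the values, per the submitters' processing notes. For its version, background correction and normalization the sources used here give nothing. Precision is limited by how few arrays each group holds and, without the replicate block, by differences between replicate numbers. For the WT change of LHCB4.1 the SE was 0.53 without the block and 0.16 with it. For that of LHCB4.2 the SE was 0.45 and 0.39. Every sample column was used.

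Values were fitted as deposited with limma 3.58.1 in R 4.3.3 (lmFit, eBayes), with 6 group means over 18 arrays, 12 residual degrees of freedom and Benjamini-Hochberg adjustment over 38408 probe sets within each of 11 contrasts. The fit was tested on simulated data, but the outcome is not given here. Python 3.11.15 with matplotlib 3.10.9 drew the figures. Of 17481 probe sets in the platform table, 16722 had 1 gene and 759 several, and 16574 matched a locus in TAIR10.1, a source of names but not of coordinates. No sequence was used.

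Members and lists were chosen with earlier results of these data known. Symbols of the lists were matched to the platform symbol and then to synonyms, and 2 wrong synonym matches, an RNA export gene taken for HPR and a formate dehydrogenase taken for FDH, were dropped. Array values were given for the 2 genes of each role group with the largest called WT change and for every gene not called in WT. In the genotype comparisons called genes were named, or the 2 with the largest difference. In each other list up to 3 called genes were named by WT change, or 2 uncalled ones. Genes beyond these, such as RCA in bes1-3 minus WT, were named after their values were seen. A measured list gene means 1 probe set with the highest mean.

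The replicate numbers in the labels recur in every group. Deviations of same-numbered arrays from their group means correlated above 0.1 for every pair in 8 of 11 contrasts (0.011 to 0.553 over all). The main fit nevertheless left the numbers out in all 11 contrasts. Only the alternative with the replicate block used them. Not every pair reached this limit in bes1-1 minus WT at 0 h and the 2 differences in change. Deviations within a group cancel out, so the lower scale of replicate 1 enters every array of the group. These correlations therefore cannot tell pairing by number from a shift of replicate 1 alone. Alternatives were the replicate block, other scalings, filters, fits of fewer groups or replicates, a trended robust prior and leaving out arrays.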

Additional observations from a re-analysis of the deposited data

How the results depend on the processing

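Of the changes over 72 h, those of 13 genes (all but LHCB4.1 and LHCB4.3) kept sign and call in all 585 values over 39 changes and 15 alternatives with a test. Replicate 1 alone, which has no test, gave 39 values, of which 13 moved by more than the spread between replicates and none changed sign. Leaving out each array in turn gave 13 to 14 genes called lower in bes1-1, 13 to 15 in bes1-3 and 13 to 13 in WT, 0 to 1 called in bes1-1 minus WT at 72 h and 0 to 0 in each of the other 7 genotype comparisons. In bes1-1 minus WT at 72 h, where none was called, 1 gene was called with the replicate block (beside 13.4% of all probe sets), with quantile normalization (6.59%), with equal array medians (5.16%) or with scaling to reference genes (5.23%), and 2 within replicates 2 and 3 (5.25%). In bes1-3 minus WT at 72 h the counts were 2 with the replicate block (7.31%), 1 with quantile normalization (2.45%) and 1 with equal array medians (1.47%). For the difference in change, bes1-1 minus WT, 1 gene was called with the replicate block (8.33%), with quantile normalization (3.16%) or with equal medians (2.9%), and for bes1-3 minus WT 1 with the replicate block (1.12%). Each single gene in these counts was LHCB4.3. The replicate block changed no other count of the 15 genes by over 1.5 times.

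Signs turned for values near 0. LHCB4.3 in WT gave -0.06 with quantile normalization, -0.04 with equal medians, and -0.35 to 0.43 when 1 array was left out. PSBY in bes1-1 minus WT at 0 h gave -0.41 to 0.02 when 1 array was left out (0.02 without replicate 1 of bes1-1), and NdhU -0.12 to 0.71 (-0.12 without replicate 1 of WT). Within replicate 1 alone, which has no test, NdhL gave -0.41 in bes1-1 minus WT at 72 h, -0.71 in the difference in change and -0.41 in bes1-1 minus bes1-3 at 72 h. TPI gave 0.06 in WT with quantile normalization, -0.08 in bes1-1 and -0.15 in bes1-3 with equal medians, -0.12 in bes1-3 with reference genes, and -0.07 to 0.16 in bes1-3 when 1 array was left out. HYH lost its bes1-1 call when only the bes1-1 arrays were fitted (adjusted p = 0.0598). The cause was not tested. Equal medians moved the median of all probe sets by -0.277 in the bes1-1 change and -0.166 in the bes1-3 change, and reference genes by -0.13 in bes1-3; the counts called lower were 15, 15 and 14 in bes1-1, bes1-3 and WT under each. No gene had another probe set, so that alternative could not be run.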
